A study of Mus musculus with 8 samples.

Results

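The response of hematopoietic stem cells (HSCs) to 1 day of coculture with red blood cells (RBCs) was read from 4 of the 8 RNA sequencing libraries of the study. It comprised 2 libraries of HSCs cultured with RBCs and 2 of HSCs cultured alone, and the 11565 of 24346 listed genes with a value of at least 1 FPKM in at least 2 of these 4 libraries. FPKM divides the fragments of a gene by its transcript length and by the total mapped in that library, so levels of different genes can be set side by side per length. The other 4 libraries were from LSK cells (Lin- Sca-1+ c-Kit+), the broader progenitor population that contains the HSCs, cultured in the same 2 ways.

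HSCs were wild-type (WT) mouse bone marrow cells within the LSK gate that were also CD150+ and CD48-. By the study's methods, the mice were adult C57BL/6 animals, the medium held thrombopoietin and stem cell factor in every group, and the RBCs were mouse blood freed of leukocytes by a filter and then irradiated. After culture, RBCs were lysed and CD45-positive cells were sorted, so the libraries hold whatever the HSCs had become within the day and not a re-sorted stem cell gate. The labels do not say whether the 2 libraries of a group came from separate cultures or animals, so the p-values measure only the spread between these libraries.

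HSCs keep the capacity to renew themselves and to give rise to every blood lineage, and most of them divide rarely in the marrow. They sense cytokines through receptors such as Kit, attach to their niche through integrins and matrix proteins, and read contact with neighbouring cells through pathways such as Notch, whose signal turns the receptor into a partner of the DNA-binding protein RBPJ. On activation, early response transcription factors of the AP-1 and Egr families are switched on within minutes, and genes of the later lineages follow as the cells differentiate.

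Sums of FPKM lay between 680942 and 752107 over the 8 libraries, and 14829 to 16551 genes had a value above 0, with the highest number in the first HSC library with RBCs. Relative depth, read from the recurring steps between low values, lay between 0.922 and 1.13 in the HSC libraries, taking the first LSK library without RBCs as 1. The absolute number of reads is unknown. Pearson's r over the tested genes, a description in which genes are not independent, was 0.986 and 0.985 between the HSC replicates without and with RBCs, and 0.977 to 0.983 between HSC libraries of different groups. All 10 genes listed as HSC markers were detected at 1 FPKM or more in the HSC libraries, among them Kit, Ly6a (Sca-1), Slamf1 (CD150), Procr and Mecom.

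A small set of genes changed, and most of it rose. With RBCs, 80 genes were higher (0.692% of those tested) and 18 were lower (0.156%) by at least 2-fold with an adjusted p under 0.05 (limma, Benjamini-Hochberg adjustment over all tested genes). These genes are called higher or lower below. Without the fold requirement, 204 genes passed in the higher direction (1.76%) and 129 in the lower (1.12%), so 235 genes passed the test with a change under 2-fold. The changes are differences of log2(FPKM + 1), a scale that understates the change of genes with low FPKM. The median change over all tested genes was -0.01, and 5% to 95% of genes lay between -0.37 and 0.38. For a single gene, 2 libraries a group allow an exact permutation p (two-sided) no smaller than 0.333, and the calls therefore use a variance estimate moderated over all genes.

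The filter and the log2(FPKM + 1) scale bear on the starting levels, because a gene under 1 FPKM in both libraries cultured alone was tested only if both libraries with RBCs reached 1 FPKM, and it cannot fall 2-fold on this scale. The median FPKM without RBCs was 2.79 for the 80 higher genes and 8.15 for the 18 lower genes, against 14.9 for all tested genes. Of the higher genes, 55 lay under 5 FPKM without RBCs and 20 under 1 FPKM, where 24.1% and 1.47% of all tested genes lay. Fitted changes reached 4-fold in 14 higher genes and 8-fold in 8, or 12 and 6 without small RNA genes. No lower gene fell 4-fold and 3 fell at least 3-fold, among them the small RNA gene Snord22 (-1.76). When each HSC library was left out in turn, with the lone library of that group assumed to vary like the others, 40 of the 80 higher and 13 of the 18 lower genes lost their call in at least 1 case.

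**Figure D1:**
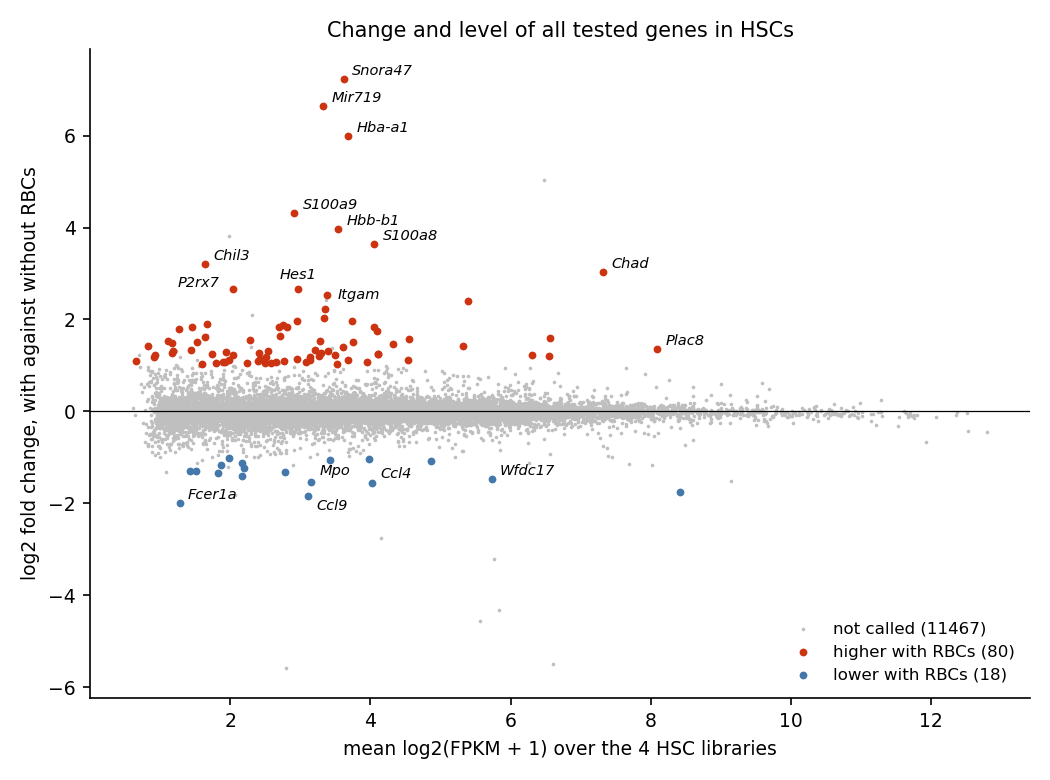
Mean log2(FPKM + 1) over the 4 HSC libraries (x axis) against the log2 fold change with against without RBCs (y axis), 1 point a gene, with the 80 higher genes in red, the 18 lower genes in blue and the other tested genes in grey. Higher genes are spread over low and middle levels with Chad and Plac8 among the most abundant.

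The 2 largest fitted changes belonged to small RNA genes with few reads. Snora47, a small nucleolar RNA gene, was listed at 0 in both libraries without RBCs and at 195 and 115 FPKM with RBCs, which the steps of its values put at an estimated 3 and 2 reads. Mir719 was likewise listed at 0 in both libraries without RBCs and at 448 and 21.4 FPKM with RBCs. Short transcripts turn a few reads into a high FPKM, and the fitted changes of both genes depend on the pseudocount and are not read as folds. Among the 33 genes past 2-fold that did not pass the test, 16 were lower, and 10 of those 16 were small RNA genes.

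The following 5 higher genes kept their call whichever HSC library was left out. Chad, which encodes the matrix protein chondroadherin, was at 51.1 and 59.0 FPKM without RBCs and at 509 and 403 FPKM with RBCs, a log2 fold change of 3.02 ± 0.12 (SE) with an adjusted p of 3.76e-06. Hes1, a transcriptional repressor of the basic helix-loop-helix family and a target of Notch, was at 1.80 and 2.46 FPKM without RBCs and at 21.3 and 16.4 FPKM with RBCs (2.66 ± 0.20, adjusted p = 0.000163). Plac8, a cysteine-rich protein of myeloid progenitors, had the highest level of the coding genes that rose after Chad, with 161 and 179 FPKM alone and 443 and 423 FPKM in coculture (1.35 ± 0.07, adjusted p = 1.42e-05). AA467197, a gene for a small mitochondrial protein, and Rprm (reprimo), which can halt the cell cycle, rose too, from 13.6 and 21.9 FPKM to 83.5 and 109 FPKM and from 3.42 and 2.51 FPKM to 14.5 and 14.2 FPKM. In each of the 5 genes the replicates lay close together and far from the other group. The 14 genes that the study names from its sequencing, which it chose on these libraries, were all called, from 1.22 for Bhlhe40 to 3.02 for Chad.

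Only Hes1 was called among the 7 tested target genes of Notch. Myc, another target, was at 235 and 223 FPKM without and 232 and 209 FPKM with RBCs, and Hes6 at 56.5 and 53.5 against 47.3 and 46.1 FPKM, neither of which passed the test (adjusted p = 0.825 and 0.16). The median change of the 7 targets was -0.02. None of the 6 tested receptors, ligands and modifiers of the pathway passed, with Notch2 at 9.47 and 8.0 FPKM without and 10.2 and 11.1 FPKM with RBCs (0.26, 95% confidence interval -0.03 to 0.55). Nor did any of the 16 tested genes of receptor processing and of the transcription complex, where the largest value was 0.45 for Maml3. These values are RNA levels. By quantitative PCR in HSCs, the study too saw no significant change of Notch1 or Notch2 RNA, while its sequencing analysis of LSK cells listed both as upregulated. Its evidence for the pathway also includes receptor protein by flow cytometry and cultures with an inhibitor.

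Grouped after the calls were known, 9 of the 80 higher genes, Hes1 included, and 0 of the 18 lower genes encode transcription factors or cofactors. The share of such genes over all tested genes was not counted, so these counts are not read as a trait of the response. Below 2-fold, Fosl1 and Lmo2 passed in the lower direction, with values given below. Fos, the AP-1 component, stood at 5.10 and 4.34 FPKM without RBCs and at 15.7 and 15.2 FPKM with them (1.53 ± 0.19, adjusted p = 0.00263). Skil, a repressor of TGF-beta signalling through Smad proteins, stood at 6.24 and 6.90 against 20.2 and 17.6 FPKM (1.39 ± 0.12, adjusted p = 0.000311). Tcf24, a basic helix-loop-helix factor, stood at 0.879 and 0.443 against 5.70 and 4.62 FPKM. Irf4, Hic1 and Cited4 began at under 1.5 FPKM, and each lost its call when the first library with RBCs was left out, with log2 fold changes of 1.27, 1.11 and 0.76.

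Arntl and Bhlhe40 were the 2 higher genes among 17 tested genes of the circadian clock, where 0.692% of all tested genes were called higher. Arntl, the activator also known as Bmal1, rose from 10.1 and 10.2 FPKM to 24.9 and 25.9 FPKM (1.24 ± 0.11, adjusted p = 0.000311), and Bhlhe40, a repressor of the same loop, from 51.2 and 49.9 FPKM to 123 and 116 FPKM (1.22 ± 0.10, adjusted p = 0.000219). No other clock gene passed, the lowest value was -0.41 for Nr1d1, and the list median was -0.12. Within this loop the activator and the repressor rose to a similar degree.

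The immediate early genes moved by smaller steps. Of 30 tested, Fos was called, and 6 passed on the adjusted p in the higher direction and 1 in the lower. Over all tested genes, 1.76% and 1.12% passed in these directions. A positive change was found in 21 of the 30, with a list median of 0.18. Junb, another AP-1 subunit, was at 56.2 and 52.8 FPKM without and 89.2 and 80.7 FPKM with RBCs (0.63, adjusted p = 0.0107), and Dusp6, a phosphatase that acts on ERK, at 23.6 and 24.0 against 48.3 and 39.2 FPKM (0.84, adjusted p = 0.00258). Fosl1 went the other way, with 6.16 and 6.13 against 2.85 and 2.39 FPKM (-0.98, adjusted p = 0.00807). Egr1 was at 147 and 139 FPKM without and 296 and 257 FPKM with RBCs but did not pass (0.94, adjusted p = 0.107).

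Integrins, the receptors that tie cells to matrix and to other cells, gave 3 calls of 14 tested, all higher. A 4th passed the adjusted p below 2-fold, the others did not pass, and all 14 values were positive with a list median of 0.33. Over all tested genes, 0.692% were called higher, 1.76% passed in the higher direction and 5545 of 11565 were positive. The lists were chosen with earlier results of these data known, so such counts are a description. Itgam, the alpha chain of Mac-1 (CD11b), was at 3.54 and 3.14 FPKM without RBCs and at 22.5 and 25.9 FPKM with RBCs (2.54 ± 0.14, adjusted p = 1.86e-05). Its partner Itgb2 (CD18) was at 4.23 and 4.20 against 12.3 and 8.75 FPKM (1.13 ± 0.21, adjusted p = 0.0221). Itgae (CD103), which binds E-cadherin, was at 2.37 and 2.64 against 12.1 and 11.6 FPKM (1.87 ± 0.14, adjusted p = 0.000182). The abundant integrins moved little, with Itgb1 at 92.7 and 84.8 against 97.3 and 95.4 FPKM (0.12, adjusted p = 0.59). Itgb2 lost its call without either library cultured alone and without the first library with RBCs, with 0.90 in the last case (adjusted p = 0.188).

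Grouped after the calls were known, and leaving out the 3 chemokine genes called lower, 9 higher and 2 lower genes encode matrix and other secreted proteins. The share of such genes over all tested genes was not counted. Spp1 (osteopontin), a matrix protein of the stem cell niche, rose from 2.74 and 4.87 FPKM to 20.4 and 21.8 FPKM (2.24 ± 0.28, adjusted p = 0.00263). Thbs1 (thrombospondin 1), an adhesive glycoprotein of platelets, rose from 8.68 and 7.93 FPKM to 30.0 and 30.2 FPKM (1.74 ± 0.18, adjusted p = 0.00113). The secreted serine proteases Htra3 and Htra1 rose together, Htra3 from 4.47 and 3.52 FPKM to 18.8 and 20.1 FPKM and Htra1 from 0.222 and 0.361 FPKM to 3.95 and 3.05 FPKM. Pgf, a growth factor of the VEGF family, rose from 1.54 and 2.14 FPKM to 7.06 and 7.61 FPKM. Among the enzymes that act on proteins, Bace2, a membrane aspartyl protease, went from 2.45 and 3.02 FPKM to 12.6 and 11.9 FPKM, and Tgm2, which cross-links proteins, from 63.7 and 44.5 FPKM to 158 and 167 FPKM. Each of the 7 kept its call when any HSC library was left out.

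Receptors that rose span several families. P2rx7, a cation channel opened by extracellular ATP, was at 0.762 and 0.525 FPKM without RBCs and at 13.6 and 6.40 FPKM with them (2.67 ± 0.41, adjusted p = 0.00853). Its call was lost without the first library with RBCs (2.17, adjusted p = 0.067) and without the second library cultured alone (2.56, adjusted p = 0.0687). Of the 13 tested genes of purinergic signalling, Cd38, an ectoenzyme that consumes NAD, was also called. P2rx1 and P2rx4, further ATP-gated channels, passed at under 2-fold. So 4 of 13 passed in the higher direction and 0 in the lower, with a list median of 0.21. Over all tested genes, 1.76% and 1.12% passed in these directions. P2rx1 was at 15.1 and 16.1 against 27.3 and 33.2 FPKM (0.91, adjusted p = 0.00261) and P2rx4 at 28.7 and 27.1 against 52.6 and 44.3 FPKM (0.77, adjusted p = 0.01).

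Of 38 tested cytokine receptors, 2 were called, both higher, and the median was -0.05. On the adjusted p, 4 passed in the higher direction and 1 in the lower. The shares of all tested genes were 0.692% called higher, 1.76% passing higher and 1.12% passing lower. Csf1r, the receptor for the macrophage growth factor CSF1, was at 2.53 and 2.81 against 7.07 and 9.37 FPKM (1.32 ± 0.20, adjusted p = 0.00834), and lost its call without the second library with RBCs (1.14, adjusted p = 0.0615). Cxcr5, a chemokine receptor of B cells, was at 0.731 and 0.823 against 5.63 and 3.44 FPKM (1.61 ± 0.20, adjusted p = 0.00263). Csf3r, the receptor for the granulocyte growth factor G-CSF, passed at 28.8 and 23.9 against 45.2 and 42.1 FPKM (0.72, adjusted p = 0.00381), as did Il4ra, a chain of the interleukin 4 receptor, at 33.9 and 28.2 against 51.2 and 48.0 FPKM (0.66, adjusted p = 0.00767). Kit, the receptor for the stem cell factor in the medium, passed at a small lower change, with 126 and 118 against 97.6 and 90.8 FPKM (-0.37, adjusted p = 0.0183).

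Grouped in the same way, 10 of the 80 higher and 0 of the 18 lower genes act in intracellular signalling. The kinase gene Pim2 passed in the lower direction below 2-fold. Here too the share of such genes over all tested genes was not counted. Src, the tyrosine kinase that acts downstream of integrins, rose from 2.31 and 2.57 FPKM to 11.3 and 11.1 FPKM (1.83 ± 0.14, adjusted p = 0.00019). Camkk1, a kinase activated by calcium and calmodulin, rose from 7.51 and 6.54 FPKM to 22.9 and 20.8 FPKM (1.51 ± 0.15, adjusted p = 0.00069), and was the only called gene of 29 tested for calcium and calmodulin signalling, whose median was 0.02. Rgs1, which shortens signalling by G proteins, rose from 55.7 and 66.3 FPKM to 158 and 126 FPKM (1.20 ± 0.15, adjusted p = 0.00229). None of the 21 tested NF-kB target and feedback genes was higher at the 2-fold threshold. The 2 called were the chemokine genes Ccl3 and Ccl4, which were lower, as were 0.156% of all tested genes.

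**Figure D2:**
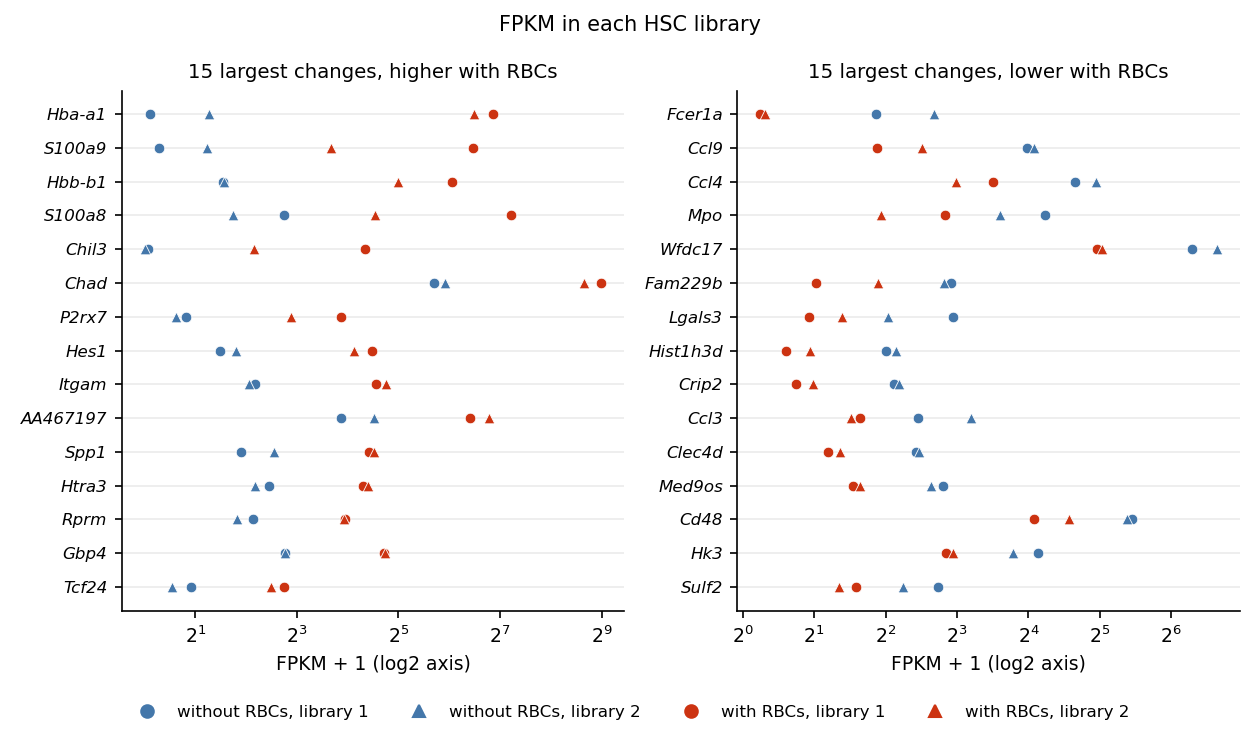
FPKM + 1 on a log2 axis in each of the 4 HSC libraries for the 15 largest changes in each direction, leaving out small RNA genes and unnamed gene models, with libraries without RBCs in blue, libraries with RBCs in red and the symbol giving the library number. In every gene both red symbols lie on the same side of both blue symbols, and S100a9, S100a8 and Chil3 have their red symbols far apart.

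Genes tied to retinoic acid gave 3 calls of 9 tested, all higher, with a list median of 0.34, where 0.692% of all tested genes were called higher. Besides Tgm2 and Cd38, both of which retinoic acid is known to induce, Dhrs3, an enzyme that turns retinal back into retinol, rose from 12.6 and 12.6 FPKM to 38.4 and 40.8 FPKM (1.58 ± 0.08, adjusted p = 1.42e-05). Rarb, a retinoic acid receptor, passed at 0.621 and 0.80 against 2.08 and 2.56 FPKM (0.95, adjusted p = 0.0263). Aldh1a1, an enzyme that makes retinoic acid, pointed the other way at 24.3 and 28.9 against 16.1 and 14.4 FPKM without passing (-0.76, adjusted p = 0.0583). Cd38 lost its call without the first library with RBCs (1.01, adjusted p = 0.0623).

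Guanylate-binding proteins, the interferon-inducible GTPases that act against pathogens inside cells, rose as neighbours on chromosome 5. On mm10, 5 tested genes lie wholly between 105077630 and 105346472, of which 4 were called higher, against 0.692% of all tested genes. These bounds are the outer ends of called genes, so the share called between them is raised by how they were set. Gbp4 rose from 5.81 and 5.75 FPKM to 25.2 and 25.6 FPKM (1.96 ± 0.20, adjusted p = 0.00086), Gbp6 from 8.68 and 7.09 FPKM to 29.6 and 31.0 FPKM (1.82 ± 0.18, adjusted p = 0.00069), Gbp11 from 2.79 and 2.61 FPKM to 10.1 and 11 FPKM (1.65 ± 0.14, adjusted p = 0.000311) and Gbp9 from 5.21 and 5.44 FPKM to 13 and 15.6 FPKM (1.27 ± 0.14, adjusted p = 0.00156). Gbp10 was at 0.306 and 0.422 against 1.95 and 1.15 FPKM (0.89, adjusted p = 0.113). Gbp8, which reaches into the stretch and overlaps Gbp4 and Gbp9 in the annotation, was at 6.23 and 6.38 against 6.77 and 6.97 FPKM and did not pass (0.11, adjusted p = 0.903). These genes are close relatives, and the authors' counting could divide reads between them.

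Abcg3, a transporter gene within 100000 bases of the stretch, passed at under 2-fold, with 14.5 and 11.1 against 24.5 and 25.8 FPKM (0.93, adjusted p = 0.0472). Gbp7, which lies on another chromosome, was at 25.1 and 27.5 against 23.8 and 24.6 FPKM (-0.12, adjusted p = 0.656), and the immunity-related GTPases Irgm1 and Igtp had changes of 0.03 and 0.09. Over the 16 tested genes of both families the median was 0.06. Of 32 other interferon-stimulated genes, Ifi27l2a was called higher and the median was 0.04, while Ifitm1, an abundant membrane protein, was at 4636 and 5222 against 3053 and 3113 FPKM (-0.67, adjusted p = 0.0315). Ifi27l2a lost its call without the first library with RBCs (0.88, adjusted p = 0.214) and without either library cultured alone.

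The opposite pattern, neighbours that fell, was found at the chemokine genes of chromosome 11. Chemokines of the CC class draw monocytes, granulocytes and lymphocytes, and in the marrow some of them restrain the division of stem cells. Between 83572919 and 83706268 (mm10), 4 of 5 tested genes were called lower, against 0.156% of all tested genes. Here too the bounds are the outer ends of called genes, which raises the share called between them. Ccl9 fell from 14.8 and 16 FPKM to 2.69 and 4.69 FPKM (-1.84 ± 0.17, adjusted p = 0.000587), Ccl4 from 24.2 and 29.8 FPKM to 10.4 and 6.93 FPKM (-1.55 ± 0.19, adjusted p = 0.00258), and Ccl3 from 4.46 and 8.16 FPKM to 2.11 and 1.87 FPKM (-1.24 ± 0.23, adjusted p = 0.0196). Wfdc17, a small secreted protein of activated phagocytes, fell from 77.5 and 98.7 FPKM to 30.1 and 31.6 FPKM (-1.47 ± 0.16, adjusted p = 0.00156).

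Ccl6, which lies between Ccl9 and Ccl3, was at 1.22 and 0.809 FPKM without and 0.622 and 2.75 FPKM with RBCs, so its groups overlapped (0.30, adjusted p = 0.797). Ccl5, a chemokine gene within 100000 bases of the stretch, was at 14.7 and 11.7 against 17.5 and 21.4 FPKM. Its change was positive and did not pass (0.53, adjusted p = 0.62). Wfdc18, also within that distance, had a negative change that did not pass (-1.31, adjusted p = 0.132). Wfdc21 (0.41), Taf15 (0.14) and Heatr6 (-0.01), within the same distance, did not pass either. The chemokine list, which holds Wfdc17 as a neighbour, had 6 tested genes and a median of -1.36. Ccl3 lost its call without the second library cultured alone (-0.87, adjusted p = 0.0913) and without either library with RBCs, whereas Ccl9, Ccl4 and Wfdc17 kept theirs in every case.

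**Figure D3:**
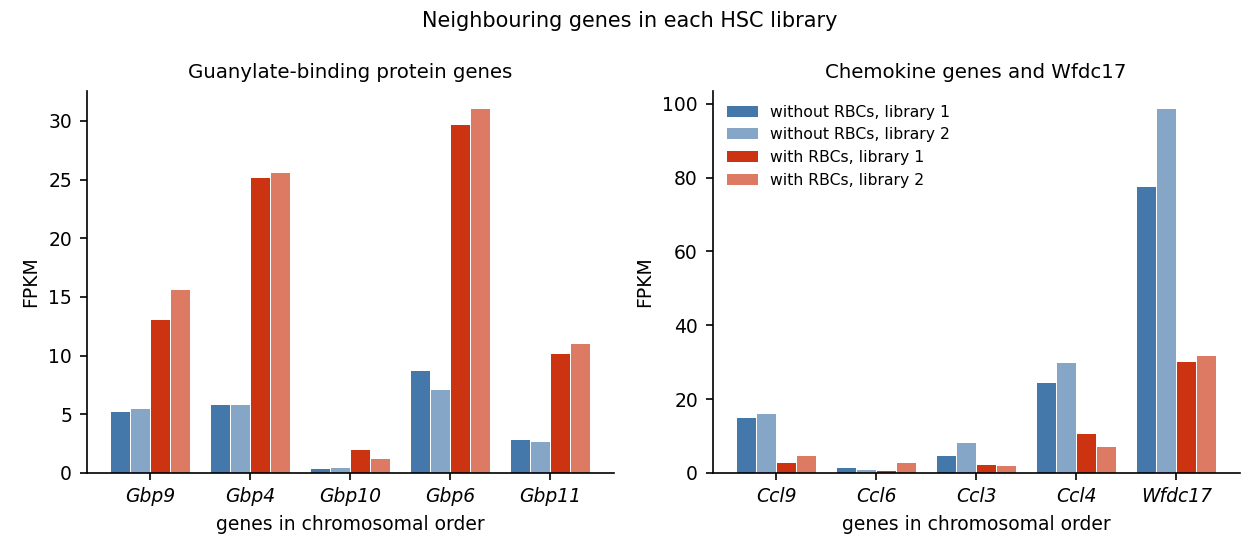
FPKM in each HSC library for the 5 tested genes wholly within the guanylate-binding protein stretch (left, without Gbp8) and of the chemokine stretch with Wfdc17 (right), in chromosomal order, with libraries without RBCs in blue and with RBCs in red. The red bars of Gbp9, Gbp4, Gbp6 and Gbp11 stand above the blue bars, those of Ccl9, Ccl3, Ccl4 and Wfdc17 stand below them, and Ccl6 has red bars on either side of the blue.

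Fcer1a had the largest fall of the 18 lower genes. It encodes the alpha chain of the high-affinity IgE receptor of mast cells and basophils and was at 2.66 and 5.38 FPKM without RBCs and at 0.187 and 0.248 FPKM with RBCs (-1.99 ± 0.27, adjusted p = 0.0038). Mast cell and basophil genes gave 2 calls of 13 tested, Fcer1a and Ccl9, both lower, with a median of -0.17. Over all tested genes, 0.156% were called lower. In the higher direction, Slc18a2, a transporter that loads amines into vesicles, passed at 62.0 and 60.7 against 86.1 and 86.1 FPKM (0.48, adjusted p = 0.011), as did Alox5, an enzyme of leukotriene synthesis, at 8.79 and 7.12 against 12.8 and 14.3 FPKM (0.70, adjusted p = 0.0418). Fcer1g, which encodes the shared gamma chain, was at 89.1 and 102 against 73.8 and 77.2 FPKM (-0.33), and Gata2, a transcription factor of these cells and of HSCs, at 75.2 and 65.0 against 77.4 and 78.3 FPKM (0.15).

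Mpo, the peroxidase of the primary granules that mark early granulocyte progenitors, fell from 17.8 and 11.1 FPKM to 6.16 and 2.82 FPKM (-1.53 ± 0.27, adjusted p = 0.015). Its call was lost without the first library cultured alone (-1.21, adjusted p = 0.0804) and without the second library with RBCs (-1.08, adjusted p = 0.055). Of 16 tested primary granule genes, 2 passed in the higher direction and 4 in the lower, with a median of -0.29. Among all tested genes, 1.76% and 1.12% passed in these directions. Prtn3, another granule protease, was at 223 and 231 against 208 and 216 FPKM (-0.10, adjusted p = 0.637), and Lyz2 at 312 and 321 against 221 and 218 FPKM (-0.53, adjusted p = 0.177). In bulk libraries, fewer cells that express a gene and less RNA per cell cannot be told apart.

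The following lower genes have more varied products. Hist1h3d, a histone H3 gene with near-identical copies, was at 3.03 and 3.41 against 0.525 and 0.927 FPKM (-1.30 ± 0.27, adjusted p = 0.0341). Clec4d, a C-type lectin of macrophages and neutrophils, fell from 4.40 and 4.55 FPKM to 1.29 and 1.56 FPKM (-1.18 ± 0.14, adjusted p = 0.00238). Lgals3 (galectin-3), a lectin of macrophages, fell from 6.73 and 3.11 FPKM to 0.913 and 1.61 FPKM (-1.33 ± 0.29, adjusted p = 0.0426), and Hk3, a hexokinase of myeloid cells, from 16.5 and 12.7 FPKM to 6.17 and 6.70 FPKM (-1.06 ± 0.15, adjusted p = 0.0048). Sulf2, an enzyme that removes sulfate from heparan sulfate, and Crip2, a LIM domain protein, fell by 1.02 and 1.29 on the log2 scale. Only Clec4d of these 6 kept its call in every omission of a library, and the smallest changes of Lgals3, Hk3 and Sulf2, each without the first library cultured alone, were -0.88, -0.88 and -0.77.

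Cd48 bears on the sorting gate, since HSCs were sorted as CD48-. It was at 42.7 and 40.5 FPKM without RBCs and at 16 and 22.8 FPKM with RBCs (-1.08 ± 0.15, adjusted p = 0.00456), and without the first library with RBCs its change was -0.84, under the 2-fold threshold. It was the only called gene among 46 tested markers and regulators of HSC identity, of which 32 had a negative change, with a list median of -0.14. On the adjusted p alone, 7 passed in the lower direction and 3 in the higher, where 1.12% and 1.76% of all tested genes passed.

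The gate markers themselves went in different directions. Slamf1 (CD150), the positive marker, was at 10.2 and 10.7 against 5.50 and 6.59 FPKM and lay just outside the test (-0.70, adjusted p = 0.0502), and Ly6a (Sca-1) at 388 and 444 against 719 and 544 FPKM did not pass (0.59, adjusted p = 0.23). Procr (EPCR), a marker of the most potent HSCs, passed at 58.2 and 65.3 against 42.5 and 43.0 FPKM (-0.52, adjusted p = 0.0119), as did Lmo2, a transcription cofactor needed for HSCs, at 451 and 471 against 271 and 284 FPKM (-0.73, adjusted p = 0.000219). Cd34, which rises as HSCs enter the progenitor stage, passed at 324 and 316 against 476 and 455 FPKM (0.54, adjusted p = 0.00213). The Hox genes with their partners gave no gene past the test among 13, and Meis1 was at 117 and 120 against 121 and 127 FPKM (0.06).

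Cell division genes shifted little. Of 43 tested genes of mitosis 34 had a positive change with a median of 0.12, and of 48 genes of DNA replication 33 were positive with a median of 0.05, but no gene of either list was called. Ube2c, which drives the exit from mitosis, was the sole mitotic gene past the adjusted p (48.9 and 54.0 against 73.9 and 72.2 FPKM, 0.50, adjusted p = 0.00564), and Lig1, the DNA ligase of replication, the sole one for replication (71.0 and 67.7 against 96.0 and 86.2 FPKM, 0.39, adjusted p = 0.0309). Cdkn1a (p21), a brake on the cycle, was at 88.4 and 96.6 against 99.7 and 87.6 FPKM (0.02, adjusted p = 0.959). The lists of p53 targets, 24 tested, and of the Bcl2 family, 15 tested, held no gene past the adjusted p. Rprm, called higher as given above, was in neither list.

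No gene of the following housekeeping and stress lists was called. No gene passed among 78 cytosolic ribosomal protein genes, whose median was -0.05 with 69 negative, nor among 12 heat shock genes, and Cox6b2 was the sole gene past the adjusted p among 81 subunits of oxidative phosphorylation. The unfolded protein and integrated stress response list had 27 of 31 genes positive, where 5545 of all 11565 tested genes were, with a median of 0.13. Its 3 members past the adjusted p, all higher, were Vldlr (11.9 and 12.6 against 26.1 and 24.8 FPKM, 1.0), Asns (101 and 103 against 158 and 136 FPKM, 0.52) and Mthfd2 (49.0 and 50.2 against 70.5 and 72.6 FPKM, 0.52), of which the last make asparagine and one-carbon units. Hspa5, the chaperone of the endoplasmic reticulum, was at 409 and 400 against 486 and 477 FPKM (0.25, adjusted p = 0.0587).

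Heme and redox genes that passed were mostly lower, at under 2-fold. The largest changes were those of Alas2 (1.43, values below) and Gpx3, both called higher. Slc48a1, a heme transporter, was at 167 and 154 against 112 and 115 FPKM (-0.50, adjusted p = 0.00373), Alas1, the first enzyme of heme synthesis outside red cells, at 20.5 and 19.1 against 14.5 and 10.6 FPKM (-0.63, adjusted p = 0.0339), and Blvrb, a biliverdin reductase, at 67.5 and 69.7 against 47.5 and 47.9 FPKM (-0.51, adjusted p = 0.0194). Of 18 tested genes of iron uptake, storage and sensing, 1 passed in the higher direction and 1 in the lower, and the highest value was 0.68 for Slc40a1. The lower one was Ftl1, the light chain of the iron store ferritin, at 6539 and 7129 against 5263 and 4866 FPKM (-0.43, adjusted p = 0.0205). Gstm1, a glutathione transferase, was at 226 and 244 against 126 and 113 FPKM (-0.97, adjusted p = 0.000214). Of 33 tested genes for Nrf2, glutathione and thioredoxin, 24 were negative, 4 passed lower and 2 passed higher. Gpx3, a secreted glutathione peroxidase, was the sole call (1.22 ± 0.17, adjusted p = 0.00421), with 0.99 without the first library cultured alone. Among all tested genes, 1.12% passed lower and 1.76% higher.

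Several abundant genes of signalling and lipid handling also passed in the lower direction just under 2-fold. Pim2, a survival kinase induced by STAT signalling, was at 253 and 236 against 118 and 128 FPKM (-0.99, adjusted p = 0.000128), and Ltb, which encodes lymphotoxin beta, at 56.4 and 45.8 against 23.2 and 27.2 FPKM (-0.99, adjusted p = 0.00231). Apoe, the lipid carrier, was at 217 and 217 against 135 and 115 FPKM (-0.80, adjusted p = 0.00197), and Anxa2, a membrane-binding annexin, at 44.8 and 47.9 against 25.1 and 27.6 FPKM (-0.79, adjusted p = 0.00197). In the higher direction, Ptgs1, the cyclooxygenase of platelets, was at 77.3 and 74.8 against 140 and 132 FPKM (0.83, adjusted p = 0.00834), and Vegfa, an angiogenic growth factor, at 12.7 and 9.66 against 20.7 and 22.4 FPKM (0.90, adjusted p = 0.0048).

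**Figure D4:**
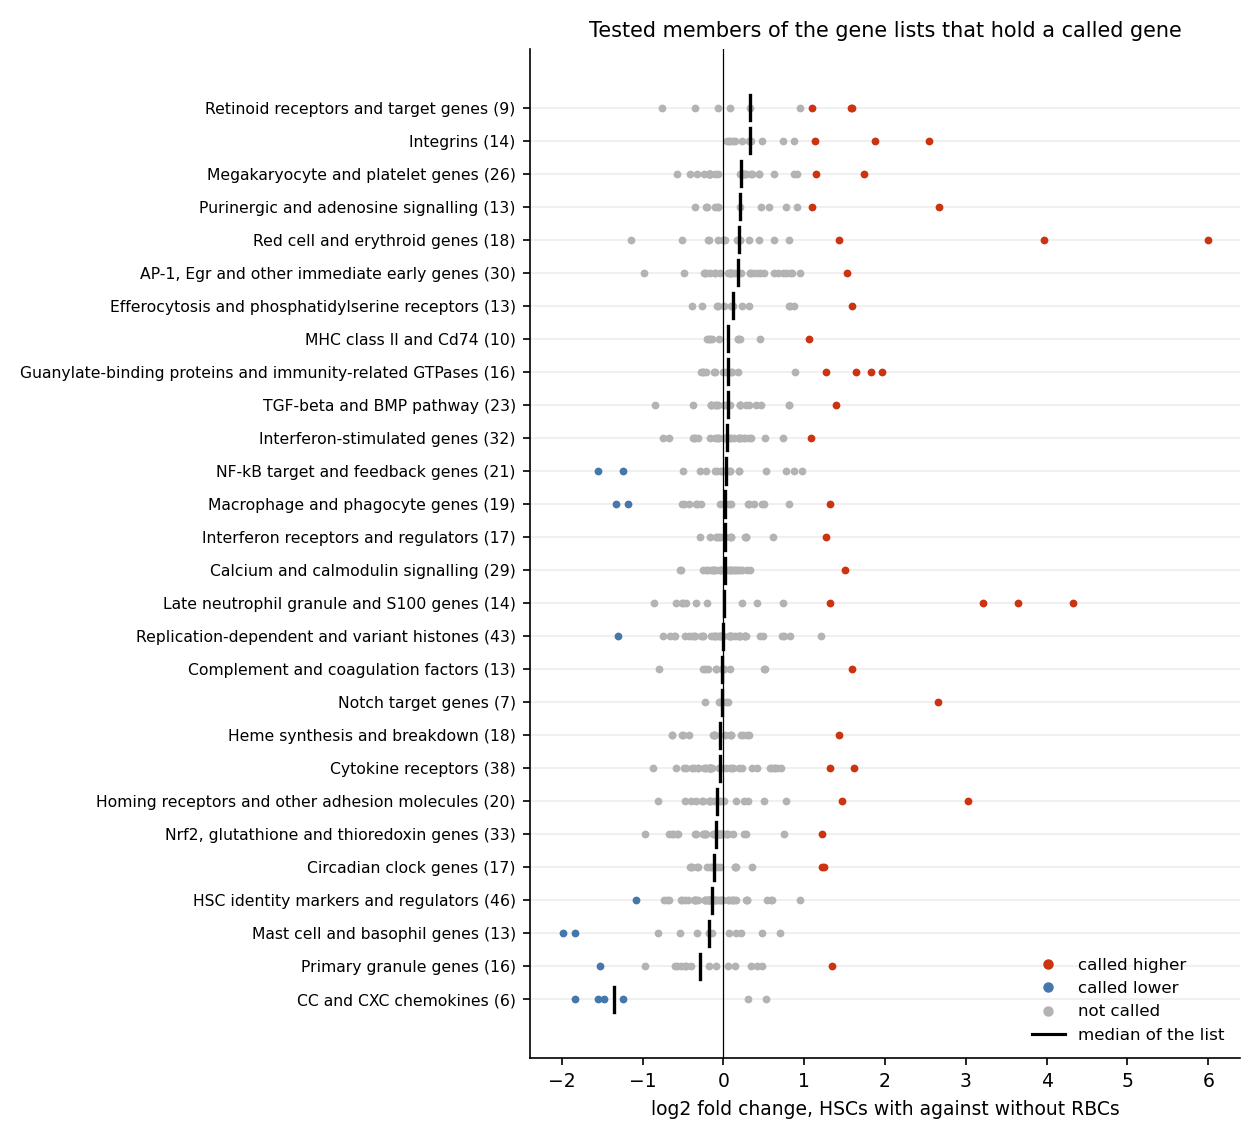
Log2 fold changes in HSCs (x axis) of the tested members of the 28 gene lists that hold a called gene, leaving out the genes named by the study, with the number tested in brackets, 1 point a gene, called genes in red or blue and the list median as a black bar. Medians lie between -0.29 and 0.34 except for the chemokines at -1.36, and the integrins have every point right of 0.

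Globin genes were among the largest changes. Hba-a1, an alpha globin gene, was at 0.0826 and 1.40 FPKM without RBCs and at 116 and 88.7 FPKM with RBCs (5.99 ± 0.32, adjusted p = 1.52e-05), and Hbb-b1, a beta globin gene, at 1.93 and 1.94 against 65.1 and 31.0 FPKM (3.97 ± 0.32, adjusted p = 0.000214). Alas2, the heme synthesis enzyme of red cells, was at 0.0785 and 0.0958 against 2.28 and 1.6 FPKM (1.43 ± 0.24, adjusted p = 0.0119), and lost its call without the first library with RBCs (1.26, adjusted p = 0.106) and without either library cultured alone. Hbb-b2, a near copy of Hbb-b1, was at 279 and 335 against 120 and 158 FPKM (-1.14, adjusted p = 0.132), and Hbb-bs, another beta globin entry, was under 0.04 FPKM in 3 libraries and at 19.1 FPKM in the second with RBCs. Reads of near-identical globin genes can be divided between them in more than one way, so single members are uncertain.

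RBCs were the cells added to these cultures. The summed FPKM of the 8 red cell markers found came to 282 and 338 in the libraries cultured alone and to 308 and 299 in those with RBCs, of which Hbb-b2 made up the greater part without RBCs. Slc4a1, the anion exchanger that defines the red cell membrane, was listed at 0 in all 4 HSC libraries. By the study's methods, RBCs were lysed and CD45-positive cells were sorted, and the RBC RNA left after these steps was not measured. The part of RNA carried over from RBCs in the globin and Alas2 values was not tested.

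S100a8, S100a9 and Chil3 rose most in the first library with RBCs. S100a9, which forms calprotectin with S100a8 in neutrophils, was at 0.220 and 1.33 FPKM without RBCs and at 87.9 and 11.8 FPKM with RBCs (4.32 ± 0.74, adjusted p = 0.013). S100a8 was at 5.70 and 2.32 against 148 and 22.3 FPKM (3.64 ± 0.68, adjusted p = 0.0197), and Chil3, a chitinase-like protein of myeloid cells, at 0.0510 and 0 against 19.3 and 3.45 FPKM (3.21 ± 0.60, adjusted p = 0.0205). Without the first library with RBCs the changes were 2.92, 2.30 and 2.12, and the adjusted p of Chil3 became 0.0698. The call of S100a9 was lost without either library cultured alone (adjusted p = 0.0765 and 0.054), that of S100a8 without the second of these (0.146) and that of Chil3 without either (0.0796 and 0.122).

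The neutrophil markers include S100a8 and S100a9 themselves, and the others did not move as 1 set. The summed FPKM of the 11 markers found came to 42.1 and 36.1 in the libraries cultured alone and to 302 and 89.5 in those with RBCs. S100a8 and S100a9 supplied most of the rise, so the sum is no separate evidence on these 2 genes. Camp was at 4.74 FPKM, Ngp at 4.65 FPKM and Lcn2 at 2.5 FPKM in the first library with RBCs and all were under 0.5 FPKM in the other HSC libraries, while Cxcr2 was at 3.03 and 3.93 against 4.22 and 4.22 FPKM. Retnlg was higher in the second library with RBCs (5.29 FPKM) than in the first (0.965 FPKM), and was at 0 and 0.209 FPKM without RBCs. Il1r2 was at 2.81 and 3.72 against 2.29 and 1.43 FPKM, Mmp8 at 0.543 and 0 against 0 and 0.150 FPKM and Ltf at 0.988 and 0.326 against 1.59 and 1.83 FPKM. Csf3r passed in the higher direction, as given above. The part of neutrophils in the values of S100a8, S100a9, Chil3 and Itgam was not tested. Markers of monocytes and macrophages summed to 90.5 and 113 against 107 and 114 FPKM, those of T cells to under 1 FPKM in every HSC library, and those of platelets to 241 and 204 against 197 and 223 FPKM. Prg2, an eosinophil granule gene, accounted for most of an eosinophil marker sum of 46.7 FPKM in the second library cultured alone, against 0.638 to 0.903 FPKM in the other 3.

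Promoter sequences were available for 51 of the 80 higher genes, 15 of the 18 lower genes and 9174 tested genes. Each covers 250 bases before to 50 after a RefSeq start site on GRCm38.p6. There was none for Hes1, Bhlhe40, Gbp4, Gbp6, Gbp9, Gbp11, Tgm2, Itgae or Ccl4, so the promoters of these called genes were not searched for any motif. The letters bound by RBPJ (TGGGAA, either strand) were found in promoters of 18 of the 51 higher genes (35.3%) and 3 of the 15 lower genes (20%), against 26.4% of the 9174. The AP-1 letters (TGANTCA) were found in 6 of 51 (11.8%) and 1 of 15 (6.67%), against 5.78%, and the E-box letters bound by clock factors (CACGTG) in 3 of 51 (5.88%), against 12.2%. The interferon response element (ISRE) was in 2 of the 51 (3.92%, against 3.75%) and the letters of the STAT-bound GAS element (TTCNNNGAA) in 5 (9.80%, against 8.31%). Short motifs such as these occur often by their letters alone, the RBPJ letters share GGGA with the NF-kB motif, and a match is not a measured site. Neither the NF-kB motif nor the cyclic AMP response letters (TGACGTCA) were found in the available promoters of called genes, against 0.458% and 3.68% of the 9174.

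Promoters of 3 genes that rose and 1 that fell are shown because they hold the letters of factors named above, in capitals. Ccl9 holds both the RBPJ and the AP-1 letters (chr11:83578587-83578886, minus strand), S100a9 the RBPJ letters (chr3:90695672-90695971, minus strand), P2rx7 the AP-1 letters at the upstream of its 2 start sites (chr5:122643677-122643976, plus strand) and Arntl the letters bound by ROR and Rev-erb factors (TAGGTCA) at the downstream of its 2 start sites (chr7:113207261-113207560, plus strand).
Ccl9: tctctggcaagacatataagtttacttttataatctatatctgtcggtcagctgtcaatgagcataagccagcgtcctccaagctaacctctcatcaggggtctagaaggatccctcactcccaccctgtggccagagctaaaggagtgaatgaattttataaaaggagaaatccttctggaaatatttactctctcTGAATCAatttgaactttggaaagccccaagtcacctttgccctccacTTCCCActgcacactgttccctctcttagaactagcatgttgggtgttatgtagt
S100a9: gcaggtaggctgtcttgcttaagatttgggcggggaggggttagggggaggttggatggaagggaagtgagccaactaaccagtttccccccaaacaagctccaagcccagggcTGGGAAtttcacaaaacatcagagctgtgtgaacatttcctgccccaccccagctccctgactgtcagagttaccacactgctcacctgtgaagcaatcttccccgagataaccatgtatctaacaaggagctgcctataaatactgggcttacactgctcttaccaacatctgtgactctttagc
P2rx7: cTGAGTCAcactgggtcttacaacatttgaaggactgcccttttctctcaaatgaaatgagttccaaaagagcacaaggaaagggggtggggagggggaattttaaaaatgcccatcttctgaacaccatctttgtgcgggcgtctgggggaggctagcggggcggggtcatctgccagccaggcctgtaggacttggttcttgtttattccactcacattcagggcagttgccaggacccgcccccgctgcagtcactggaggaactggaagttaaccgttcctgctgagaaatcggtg
Arntl: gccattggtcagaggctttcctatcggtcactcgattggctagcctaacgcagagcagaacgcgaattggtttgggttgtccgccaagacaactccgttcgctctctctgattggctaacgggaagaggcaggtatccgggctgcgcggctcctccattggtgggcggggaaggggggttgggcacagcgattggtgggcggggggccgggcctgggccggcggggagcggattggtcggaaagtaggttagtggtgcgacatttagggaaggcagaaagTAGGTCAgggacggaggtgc
The TAGGTCA letters were found in 1 of the 51 higher genes (1.96%), Arntl, and in 1 of the 15 lower genes, Ccl3, against 2.2% of the 9174.

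Other called genes also lay beside each other. In the chromosome 11 stretch from 73019008 to 73147446 (mm10), Camkk1 and Itgae were both higher, and P2rx1, which spans 72999103 to 73015200 on the same strand and passed at under 2-fold, lies just outside it. S100a8 and S100a9 lie within 26744 bases on chromosome 3, and Rgs2 and Rgs1 within 249905 bases on chromosome 1. Pgf and Fos, 310639 bases from end to end on chromosome 12, had 5 tested genes between them, none of which passed, with changes from -0.27 for Acyp1 to 0.16 for Nek9. Of the 80 higher genes, 75 are annotated as protein coding in GENCODE M21 and 26 overlap an annotated gene on the opposite strand, as do 4 of the 18 lower genes. The share of all tested genes with such an overlap was not counted. The library kits do not mark strand, so reads of such partners, for example Htra1 and Fgfr2 or Itgae and Haspin, cannot be told apart.

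The effect of RBCs on LSK cells was compared in the same fit over the same genes. Coculture of LSK cells gave 90 higher genes (0.778%) and 10 lower genes (0.0865%). Of the genes higher in HSCs, 39 were also higher in LSK cells, which is 48.8% of the HSC genes and 43.3% of the LSK genes, and 77 of the 80 had a positive change in LSK cells, with a median of 1.08 against -0.01 for all genes. Of the 18 genes lower in HSCs, Clec4d was also lower in LSK cells, 8 had a positive change there, and the median was -0.07. An effect called in only 1 cell type is not thereby shown to differ, so the difference was tested directly.

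The effect differed between the cell types for 14 genes (0.121%, interaction term, adjusted p under 0.05 and at least 2-fold). This count was 0 with no variance trend, 1 with no filter on low values and 7 without the second HSC library cultured alone. Wfdc17 was called in opposite directions, since it fell in HSCs and rose in LSK cells from 204 and 139 FPKM to 391 and 439 FPKM (1.29), a difference of -2.77 (adjusted p = 0.00178). Ccl9 fell in HSCs and was at 72.4 and 78.5 against 65.5 and 75.5 FPKM in LSK cells (-0.10), a difference of -1.74 (adjusted p = 0.0368). Fos rose in both, from 3.27 and 1.74 FPKM to 30.9 and 35.3 FPKM in LSK cells (3.31), so its rise in HSCs was smaller by 1.79 on the log2 scale (adjusted p = 0.0492). Chad rose more in HSCs, with 68.4 and 60.9 against 265 and 236 FPKM in LSK cells (1.94) and a difference of 1.09 (adjusted p = 0.0492).

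The near-identical beta globin entries differed from each other in LSK cells. Hbb-bs was at 0.00522 and 0.172 FPKM without and 18.9 and 19.4 FPKM with RBCs, and Hbb-b2 at 109 and 173 against 128 and 54.1 FPKM. Hbb-b1, called higher in HSCs, was at 0.907 and 2.12 FPKM without and 0.0438 and 0.0145 FPKM with RBCs in LSK cells, a difference of 5.21 (adjusted p = 0.00178). Which entry the reads were given to and a difference between the cell types cannot be told apart. Hba-a1 rose in both cell types (4.16 in LSK cells) with no difference past the test (1.83, adjusted p = 0.173). Hes1 rose in LSK cells from 3.56 and 2.26 FPKM to 13 and 12 FPKM (1.81), and its effects did not differ past the test (0.85, adjusted p = 0.26). Sdc1 (syndecan-1), a heparan sulfate proteoglycan, was at 4.13 and 3.25 against 3.39 and 2.88 FPKM in HSCs and rose in LSK cells from 7.51 and 8.19 FPKM to 21.8 and 25.2 FPKM, a difference of -1.64 (adjusted p = 0.0208). Apoe and the peptidoglycan receptor Pglyrp1 passed in the lower direction in HSCs and were positive in LSK cells, with differences of -1.12 and -1.42.

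**Figure D5:**
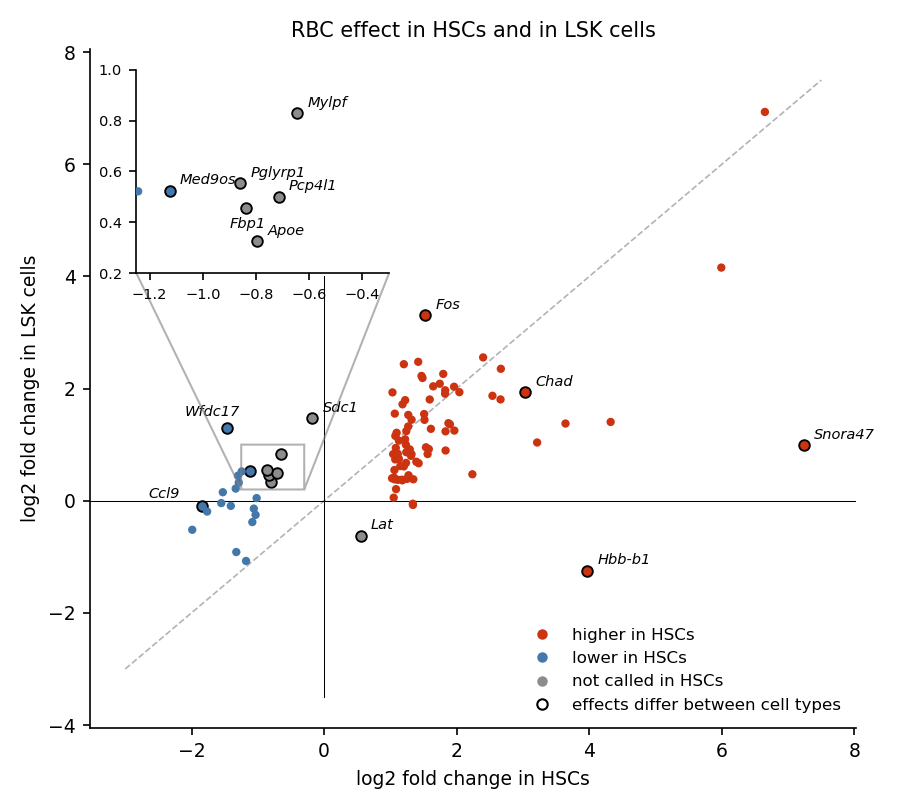
Log2 fold change with against without RBCs in HSCs (x axis) and in LSK cells (y axis) for the genes called in HSCs or with effects that differ between the cell types (black rim and name), with an enlarged view of the boxed area and the dashed line where both changes are equal. Most red points lie above 0 on both axes, the blue points lie around 0 in LSK cells, and Wfdc17 and Hbb-b1 have opposite signs on the axes.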

How the data were processed

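RNA was sequenced from 8 libraries, 2 of each cell type with and without RBCs. The authors deposited FPKM values per gene, made with TopHat2 2.1.1, Bowtie2 2.2.8, SAMtools 0.1.18 and Cuffdiff 2.2.1 on mm10 (names and versions from the submitters' processing notes). The files hold no read counts, so a count model was not used. Groups were taken from the sample titles.

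Genes with at least 1 FPKM in at least 2 HSC libraries were transformed to log2(FPKM + 1) and fitted in limma 3.58.1 (R 4.3.3) with 4 group means over all 8 libraries and a mean-dependent prior variance. Contrasts were the RBC effect in HSCs, in LSK cells and their difference, two-sided, with Benjamini-Hochberg adjustment over all tested genes. A call needed an adjusted p under 0.05 and at least 2-fold. The code was tested on simulated data. The members and gene lists were chosen with earlier results of these data known. Named genes were the called genes, the members of each list that were called or passed the adjusted p, and up to 4 further abundant members of a list. List extremes, neighbours of called genes and a few markers were named after their values were seen, and called genes were grouped by function after the calls were known. Same-numbered libraries did not deviate together (correlation -0.04 in HSCs and 0.02 in LSK cells), so numbers were not used as pairs. Gene types and coordinates were from GENCODE M21, and promoters from RefSeq (GRCm38.p6). Alternatives changed the pseudocount, filter, scaling, variance trend, libraries and thresholds. Some genes are not reported here.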

Additional observations from a re-analysis of the deposited data

Results flagged for a closer look

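By the interaction term, 14 genes responded unequally to RBCs in the 2 cell types (limma, Benjamini-Hochberg adjustment), given here as the HSC change minus the LSK change in log2(FPKM + 1). The difference was negative for 10 genes and positive for 4, and 1459 genes had an unadjusted p under 0.05. With no variance trend 0 genes passed, with no filter 1 and without the second HSC library cultured alone 7.

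The negative differences included -2.77 for Wfdc17 (adjusted p = 0.00178), -1.79 for Fos (adjusted p = 0.0492) and -1.74 for Ccl9 (adjusted p = 0.0368). Sdc1 differed by -1.64 (adjusted p = 0.0208), Pglyrp1 by -1.42 (adjusted p = 0.0208) and Apoe by -1.12 (adjusted p = 0.0142). Med9os, a noncoding gene, was called lower in HSCs and had 0.52 in LSK cells, a difference of -1.65 (adjusted p = 0.0492). Fbp1, a gluconeogenic phosphatase, was at 7.05 and 8.4 against 4.02 and 3.72 FPKM in HSCs and at 15.9 and 18.9 against 23.3 and 25.1 FPKM in LSK cells, a difference of -1.30 (adjusted p = 0.0408). Pcp4l1 was at 45.2 and 47.3 against 26.9 and 28.7 FPKM in HSCs and at 39.6 and 39.2 against 56.5 and 55.8 FPKM in LSK cells (-1.22, adjusted p = 0.00178). Mylpf, a myosin light chain gene, differed by -1.48 (adjusted p = 0.0307).

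On the positive side, Hbb-b1 differed by 5.21 (adjusted p = 0.00178), while the near-identical Hbb-bs was at 0.00522 and 0.172 against 18.9 and 19.4 FPKM and Hbb-b2 at 109 and 173 against 128 and 54.1 FPKM in LSK cells, so the value depends on which entry the reads were given to. Chad differed by 1.09 (adjusted p = 0.0492). Lat, an adaptor of T cell receptor signalling, was at 14.6 and 15.4 against 21.3 and 23.6 FPKM in HSCs and at 20.9 and 19.6 against 13.3 and 12.3 FPKM in LSK cells (1.17, adjusted p = 0.0191). The fitted 6.25 of Snora47 (adjusted p = 0.00178) rests on few reads and depends on the pseudocount.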

How the results depend on the processing

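Counts of calls depended on how low values were treated. With a pseudocount of 0.1, 30 genes were lower, and with a pseudocount of 5, 32 were higher and 5 lower. With no filter 48 were higher, 6 lower and 1 differed between cell types, and with at least 5 FPKM in at least 2 HSC libraries 11 were lower. With no variance trend 0 genes differed between cell types. Without a fold threshold 204 were higher and 129 lower, at 1.5-fold 157 and 74, and at an adjusted p under 0.10 the effect differed for 34 genes.

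Leaving out each HSC library in turn gave 54 to 78 higher genes, 16 to 21 lower genes and 7 to 14 that differed between cell types, with 7 without the second library cultured alone. Of the 89 uncalled genes recomputed in this way, 3 changed sign in at least 1 case. Ccl6 ranged from -0.30 without the second library with RBCs to 0.90 without the first, Irgm1 from -0.078 to 0.14 without the first and the second library with RBCs and at -0.029 without the first cultured alone, and Myc from -0.13 to 0.017 without the first and the second library with RBCs. Across all alternatives 27 higher and 3 lower genes were called every time. The cause of these shifts was not tested.

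Replicate numbers were not used as pairs, and the labels do not say whether same-numbered libraries belong together. With the replicate number as a block within each cell type, 74 genes were higher, 19 lower and 13 differed between cell types. TPM scaling moved the median of all genes to 0.02. Absolute depth is unknown, which limits what can be said of genes under 1 FPKM.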
